A study of Rattus norvegicus with 8 samples.

Results

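The genes described here are 38 genes of the cell cycle and of DNA replication, measured in the C6 line, which was derived from a rat glioma and keeps traits of glia. They were listed by name, with no threshold on a measured value, but with earlier results of these data known. The array held 29 of them, of 4736 genes named by a single symbol in all, on 53 of its 8799 probe sets. The 9 others, Ccnh, Rrm1, Rrm2, Tk1, Ccna2, Cks2, Birc5, Mki67 and Ran, were not analysed here. Of the 29, 28 passed a minimum mean signal of 8 and were tested. Cdc25a, a phosphatase that activates the early cyclin-dependent kinases, fell short of that minimum, with signals between 4.66 and 7.39 on 7 arrays and 18.6 on C6 slow replicate 1. Each gene was represented by its probe set with the highest mean signal. The 28 genes were split by phase into 10 of G1 and entry into S phase, 8 of S phase, 6 of G2 and mitosis, and 4 of chromatin and the nucleus.

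Total RNA was measured on 8 oligonucleotide arrays in 4 groups of 2, the fast and the slow cells of C6 and the fast and the slow cells of C6SPGFP; C6 and C6SPGFP are called sets below. The labels name migration as the subject and give C6 as the source of every sample. They do not say what C6SPGFP stands for, how fast and slow cells were separated, or whether the replicates of a group were separate cultures. The p-values therefore cover no more than the spread among these arrays, and this spread may be technical.

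The cell cycle runs on cyclins, which switch on cyclin-dependent kinases in turn. D-type cyclins with Cdk4 and cyclin E with Cdk2 take a cell through G1, a replication machinery then copies the DNA, and cyclin B with Cdk1 drives mitosis. Many S phase genes are switched on by E2F factors as cells leave G1, while many mitotic genes are switched on later, through CHR and CCAAT elements near their start. In a dividing line such as C6, the RNA of these genes is a common measure of how much of a culture is cycling. In bulk RNA, a different share of cells in a phase and a different amount of RNA per cell cannot be told apart.

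The C6SPGFP fast replicate 1 array was deposited on another scale, with a 2% trimmed mean of 500.5 against 100.1 to 105.8 on the others, so all arrays were quantile normalised. Values below are normalised signals, in arbitrary units of intensity, and log2 changes of signal plus 8. Of the 7 glial markers, 5 were held, and their summed signal was 4895 to 5060.5 in C6 slow, 2940 to 3160 in C6 fast, 7123 to 7263 in C6SPGFP slow and 6782 to 6862 in C6SPGFP fast. Vim, the intermediate filament vimentin, stayed between 2594 and 3831 on all arrays, whereas Sox10, a transcription factor of the glial lineage, was at 2.23 and 0.9 in C6 fast and between 240 and 571 on the others. S100b, Nes and Cnp were lower in C6 fast as well (4 of the 5 called with Sox10), and Gfap was not analysed here. Sums of markers of other cells were lower: the 7 held for microglia and blood summed to between 226 and 382 on all arrays with Itgam under 8 throughout, the 6 endothelial and mural ones to between 293 and 368, and the 5 neuronal ones to between 60.9 and 127 with Syt1 under 8 throughout. Single markers moved within these sums. Between slow and fast cells of C6, 1 microglia and blood marker was called, Cd37, at 16.2 and 13.0 in slow and 40.0 and 66.2 in fast cells. In fast cells 2 markers of microglia and blood and 1 neuronal marker were called between the sets, and 1 of each list on the average of both sets; Gap43, of growing neurites, was at 77.5 and 70.7 in C6SPGFP fast and between 21.8 and 47.1 elsewhere. The part of these markers in the results below was not tested.

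Cell cycle genes leaned towards higher signal in fast cells of both sets, by small amounts. In C6 the median log2 change of the 28 genes was 0.20, with 21 positive and 7 negative, where the median of all 6684 probe sets tested was 0.01 and 51.6% were positive. In C6SPGFP the median was 0.17, with 25 positive and 3 negative, against -0.02 and 47.2%. Few single genes passed the test. With limma, at an adjusted p under 0.05 (Benjamini-Hochberg), 2 of 28 passed in C6, where 6.66% of all probe sets did. Cdkn1b rose, as did 2.69% of all probe sets, and Ccne1 fell, as did 3.96%. In C6SPGFP 0 of 28 passed with limma, where 1.39% of all probe sets did, and the lowest adjusted p was 0.199. At an unadjusted p under 0.05, 8 of the genes (28.6%) were counted in C6 and 7 (25%) in C6SPGFP, where 19.4% and 9.69% of all probe sets were. On the average of both sets 1 gene passed, Tyms, which rose, where 5.03% of all probe sets passed and 2.41% rose. For that average, 11 of 28 (39.3%) had an unadjusted p under 0.05, against 16.8% of all probe sets.

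**Figure D1:**
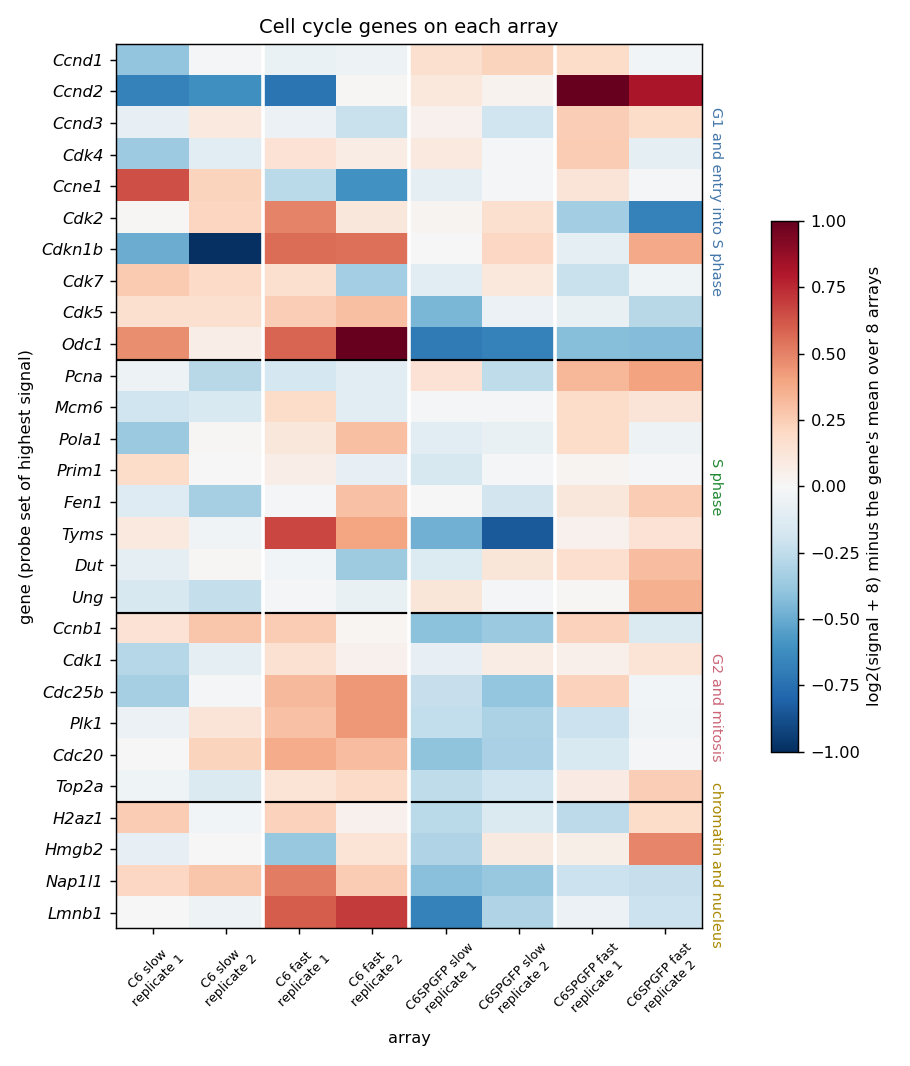
Heat map of the 28 tested cell cycle genes, in rows by phase, on the 8 arrays, in columns by group. Colour is log2 of the normalised signal plus 8 minus the gene's mean over the arrays, and the scale ends at 1 in either direction, so larger deviations share the end colour; the G2 and mitosis genes have their highest medians in C6 fast and their lowest in C6SPGFP slow.

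Fast and slow arrays did not overlap for many of these genes. In C6, 15 of 28 genes (53.6%) had both fast arrays above both slow arrays, where 24.3% of all probe sets did, and 2 had them below, Ccne1 and Cdk7, where 20.8% did. In C6SPGFP, 17 of 28 (60.7%) had the fast arrays above, where 20.9% of all probe sets did, and 1 had them below, Cdk2, where 23.2% did. In both sets at once 10 genes (35.7%) had every fast array above every slow one, against 5.61% of all probe sets. These 10 were Odc1, Mcm6, Pola1, Fen1, Tyms, Cdc25b, Plk1, Cdc20, Top2a and Lmnb1. For Odc1 and Mcm6 another probe set had a negative change in C6SPGFP, of -0.07 and -0.04. Fast and slow arrays also overlapped on both other Top2a probe sets in C6SPGFP and on another Mcm6 probe set in C6. On the other tested Cdc25b probe set, of low signal (mean 15.9), they overlapped in both sets. None of the 28 genes had every fast array below in both sets, against 5.85% of all probe sets. With each array scaled by its trimmed mean in place of quantile normalisation, Pola1 left the group. The group then held 9 (32.1%), against 5.16% of all probe sets. With this scaling 1 gene (3.57%), Cdk7, was below in both sets, against 6.06% of all probe sets. These shares describe 28 genes that tend to vary together and were listed with earlier results of these data known, and are not a test.

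**Figure D2:**
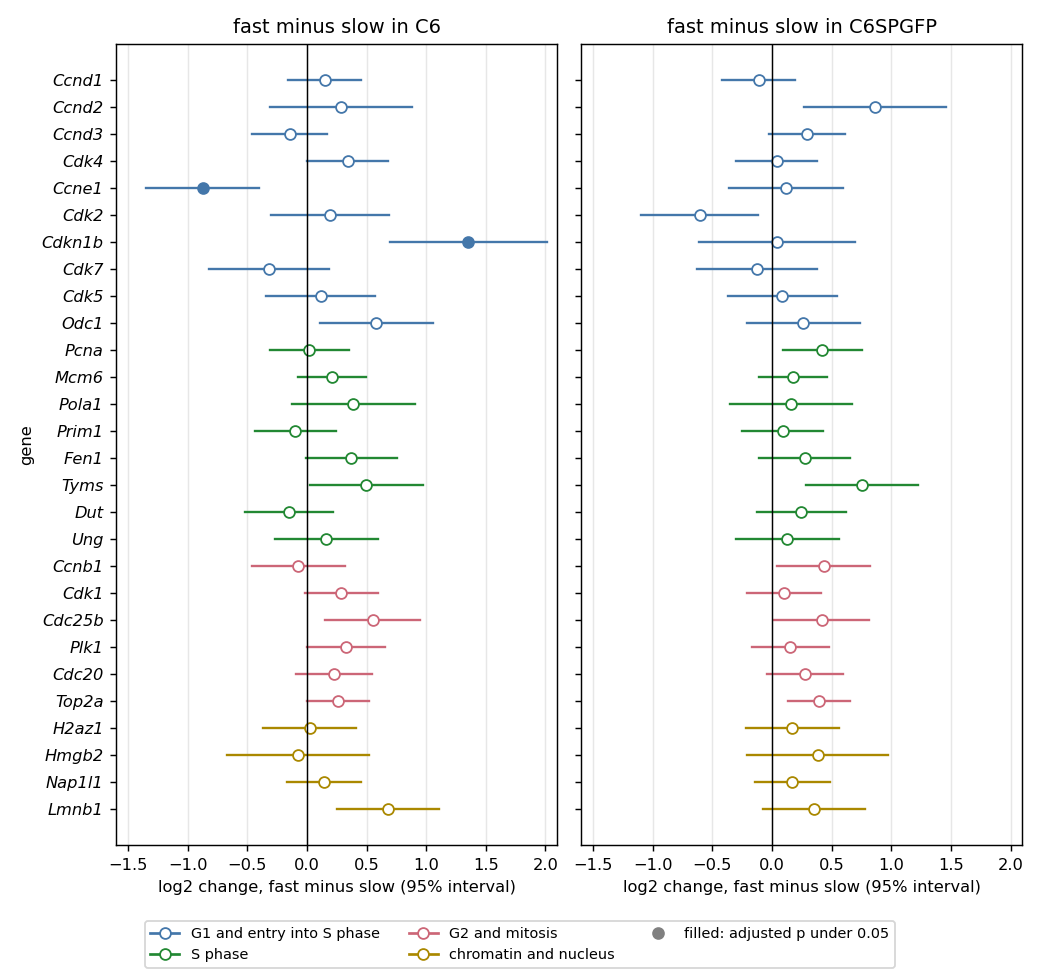
Log2 change from slow to fast cells of each tested gene in C6 (left) and C6SPGFP (right), with its 95% interval as a line, coloured by phase, and filled where the adjusted p was under 0.05. Most points lie right of 0, 21 of 28 in C6 and 25 of 28 in C6SPGFP, while Ccne1 and Cdkn1b in C6 are the 2 filled ones.

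Promoters are shown for 4 of the 10 genes that separated in both sets, a mitotic pair (Cdc20 and Plk1) and an S phase pair (Mcm6 and Tyms), because the phases differ in the elements near the start. The RefSeq promoter table of build GRCr8 gives 250 bases before to 50 bases after each start, and held 28 such windows for 27 of the 29 genes; Ccnd1 and Ccnd2 were not in it. Capitals mark matches on either strand to an E2F site (TTTCCCGC, TTTCGCGC, TTTGCCGC or TTTGGCGC), a CHR element (TTTGAA or TTCGAA) or a CCAAT box (CCAAT). The Cdc20 window is chr5:137255750-137256049 on the minus strand, the Plk1 window chr1:186147408-186147707 on the plus strand, the Mcm6 window chr13:42404303-42404602 on the minus strand and the Tyms window chr9:120776034-120776333 on the minus strand.
Cdc20: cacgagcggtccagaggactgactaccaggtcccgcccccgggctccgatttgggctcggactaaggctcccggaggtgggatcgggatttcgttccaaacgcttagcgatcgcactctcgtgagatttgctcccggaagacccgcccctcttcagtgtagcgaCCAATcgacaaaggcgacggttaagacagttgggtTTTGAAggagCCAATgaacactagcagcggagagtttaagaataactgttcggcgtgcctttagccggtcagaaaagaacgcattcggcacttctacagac
Plk1: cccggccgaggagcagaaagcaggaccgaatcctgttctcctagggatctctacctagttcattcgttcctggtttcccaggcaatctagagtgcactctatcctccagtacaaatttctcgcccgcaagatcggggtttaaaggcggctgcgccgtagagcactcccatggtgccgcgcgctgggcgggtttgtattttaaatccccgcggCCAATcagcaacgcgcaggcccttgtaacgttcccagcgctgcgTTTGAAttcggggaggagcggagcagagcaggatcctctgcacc
Mcm6: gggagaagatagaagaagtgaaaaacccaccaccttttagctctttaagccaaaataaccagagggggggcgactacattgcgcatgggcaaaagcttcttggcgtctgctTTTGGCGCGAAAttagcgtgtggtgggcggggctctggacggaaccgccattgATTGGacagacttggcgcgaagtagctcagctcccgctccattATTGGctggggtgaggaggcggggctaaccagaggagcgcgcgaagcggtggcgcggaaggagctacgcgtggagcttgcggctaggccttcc
Tyms: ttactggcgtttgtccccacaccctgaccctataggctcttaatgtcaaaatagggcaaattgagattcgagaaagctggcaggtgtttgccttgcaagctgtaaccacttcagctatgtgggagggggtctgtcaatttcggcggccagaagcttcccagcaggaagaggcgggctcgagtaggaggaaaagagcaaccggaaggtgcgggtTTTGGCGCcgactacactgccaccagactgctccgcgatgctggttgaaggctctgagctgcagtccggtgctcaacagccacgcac
Cdc20, an activator of the anaphase-promoting complex, has a CHR match whose leftmost base lies at -51 from its start, between CCAAT boxes at -86 and -41. In Plk1, a mitotic kinase, the CCAAT box lies at -38 and the CHR match at 7, after the start. Mcm6, a subunit of the replicative helicase, holds 2 overlapping E2F matches, at -139 and -135 on opposite strands, and CCAAT boxes on the other strand at -86 and -43. Tyms, which makes thymidylate for DNA synthesis, holds an E2F match at -37 and no CHR or CCAAT match. The windows of Fen1 and Odc1, also among the 10 genes, hold no E2F, CHR or CCAAT match.

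Over the 28 windows, 6 (21.4%) held an E2F match, those of Cdc25a, Cdk1, Mcm6, Pola1, Tyms and Ung, where 2.14% of all 33469 windows in the table and 3.44% of those of genes tested on the array did. A CHR match was held by 10 (35.7%), against 19.7% of all windows and 12.7% of those of genes on the array. By phase, 5 of 6 windows of G2 and mitosis genes and 3 of 4 of chromatin genes held a CHR match, and 0 of 9 of G1 genes. The E2F matches lay in 4 of the 9 windows of S phase genes. A CCAAT box stood in 19 (67.9%), among them all 6 of G2 and mitosis and all 4 of chromatin, against 37.5% of all windows. A match is a string of letters and not a measured site.

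Of the D-type cyclins, which couple growth signals to entry into the cycle, 1 of 3 passed, Ccnd2 between the sets in fast cells. In that comparison 15.6% of all probe sets passed and 8.29% were higher. Ccnd2, cyclin D2, had signals of 37.5 and 39.7 in C6 slow, 35.9 and 65.4 in C6 fast, 70.6 and 66.7 in C6SPGFP slow, and 143 and 120 in C6SPGFP fast. Both C6SPGFP fast arrays were above every other array, and the C6SPGFP arrays were above the C6 arrays of the same speed. Between the sets in fast cells it rose by 1.29 ± 0.26 (log2 change ± SE, 2 arrays a group), 2.45-fold, with an adjusted p of 0.0114. Another Ccnd2 probe set gave 1.02 and an adjusted p of 0.0973. From slow to fast cells of C6SPGFP the change of Ccnd2 was 0.86 ± 0.26 with an adjusted p of 0.249, and in C6 it was 0.29 ± 0.26. The call between the sets was lost without C6SPGFP fast replicate 1, at an adjusted p of 0.0805.

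Ccnd1, cyclin D1, lay at 1810 and 2346 in C6 slow, 2270 and 2302 in C6 fast, 2658 and 2790 in C6SPGFP slow, and 2712 and 2336 in C6SPGFP fast. The C6SPGFP arrays were above the C6 arrays of the same speed, by 0.40 ± 0.13 in slow cells, which did not pass at an adjusted p of 0.127. Its 5 probe sets gave 0.40 to 0.54 in slow cells, none of them called, and changes of mixed sign in fast cells. Ccnd3, cyclin D3, differed by -0.15 from slow to fast cells in C6 and by 0.29 in C6SPGFP, the latter with fast arrays of 1008 and 970 above slow arrays of 875 and 740. Cdk4, the kinase partner of these cyclins, lay at 910 and 1088 in C6 slow against 1292 and 1235 in C6 fast, a change of 0.34 ± 0.15 with an adjusted p of 0.256. In C6SPGFP its change was 0.04.

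Of the 7 genes with a negative change in C6, cyclin E1 was the only one that passed the test. Ccne1, which activates Cdk2 at the G1 to S boundary, had signals of 244 and 180 in C6 slow, 125 and 97.9 in C6 fast, 142 and 152 in C6SPGFP slow, and 168 and 152 in C6SPGFP fast. Both C6 fast arrays were below all other arrays, and the C6 slow arrays were above all others. The change in C6 was -0.87 ± 0.21, a 1.83-fold decrease with an adjusted p of 0.0434, and another probe set gave -0.48 and an adjusted p of 0.185. In C6SPGFP the change was 0.12 ± 0.21, and the difference of the changes between the sets, 0.99 ± 0.29, did not pass at an adjusted p of 0.135. The call in C6 held without C6 slow replicate 2. It was lost on dropping any other array. Fits without the minimum signal, without a trend or with only the arrays compared also lost it. The adjusted p was 0.193 on dropping C6 slow replicate 1, 0.0562 and 0.194 on dropping C6 fast replicates 1 and 2, and 0.0784 to 0.0838 on dropping each C6SPGFP array in turn.

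Cdkn1b, the inhibitor p27 that holds Cdk2 back, had signals of 9.38 and 3.36 in C6 slow, 28.0 and 27.8 in C6 fast, 16.5 and 20.2 in C6SPGFP slow, and 15.1 and 23.8 in C6SPGFP fast. All these signals are low, and those in C6 slow are not shown to be above background, so no fold is given. It rose in C6 by 1.35 ± 0.29 on the scale of log2 signal plus 8, with an adjusted p of 0.026. The size depends on the number added to the signal: it was 1.94 with 2 and 0.65 with 32, both called. With only the arrays compared the call was lost. In C6SPGFP the change was 0.04 ± 0.29, and the difference between the sets, -1.31 ± 0.41, had an adjusted p of 0.152. The call was lost on dropping C6 slow replicate 2 (adjusted p 0.103) or either C6 fast array (0.0935 for replicate 1, 0.108 for replicate 2).

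Cdk2, the kinase of S phase entry, had signals of 97.4 and 113 in C6 slow, 140 and 105 in C6 fast, 98.9 and 109 in C6SPGFP slow, and 74.2 and 57.5 in C6SPGFP fast. The C6SPGFP fast arrays were below every other array. Between the sets in fast cells Cdk2 fell by 0.82 ± 0.22 on the log2 scale, with an adjusted p of 0.037, and another probe set gave -0.97 and an adjusted p of 0.0212. Within C6SPGFP the change from slow to fast was -0.61 ± 0.22 and did not pass, at an adjusted p of 0.358, while the other probe set gave 0.02 with overlapping arrays. On the average of both sets they differed in sign, at -0.21 and 0.33. The call between the sets was lost without C6 fast replicate 1 (adjusted p 0.167), C6SPGFP slow replicate 1 (0.0646) or 2 (0.0648), or C6SPGFP fast replicate 1 (0.0691) or 2 (0.211), and under scaling by the trimmed mean (0.0772). Without the minimum signal or with only the arrays compared, the Cdk2 call was also lost. Cdk5, an atypical kinase best known in neurons, and Cdk7, the kinase that activates the others, passed in no comparison. Cdk7 changed by -0.32 in C6 and -0.13 in C6SPGFP, and Cdk5 by 0.11 and 0.09.

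Odc1 was the only one of the 28 genes with a call that held without each array in turn, that between the sets in fast cells. It encodes ornithine decarboxylase, which makes the polyamines that growing cells need and is a known target of Myc. Its signals were 580 and 439 in C6 slow, 630 and 916 in C6 fast, 253 and 259 in C6SPGFP slow, and 309 and 308 in C6SPGFP fast. Every C6SPGFP array was below every C6 array, and within each set the fast arrays were above the slow ones. Another Odc1 probe set had fast above slow in C6 but fast below slow in C6SPGFP, at 236 and 224 against 245 and 238, with changes of 0.43 and -0.07. Between the sets it fell by 0.96 ± 0.21 in slow cells, 1.94-fold with an adjusted p of 0.0317, and by 1.28 ± 0.21 in fast cells, 2.42-fold with an adjusted p of 0.00403. Between the sets, that other probe set gave -0.74 with an adjusted p of 0.0236 and -1.24 with 0.000916. From slow to fast the change was 0.58 ± 0.21 in C6 and 0.26 ± 0.21 in C6SPGFP, neither called. The call between the sets in slow cells was lost without a trend and with only the arrays compared. Without each array in turn, the adjusted p in fast cells ran from 0.00401 to 0.0332. In slow cells it was lost without C6 slow replicate 1 (adjusted p 0.144), C6SPGFP slow replicate 1 (0.146) or 2 (0.159), or C6SPGFP fast replicate 1 (0.0627) or 2 (0.0626).

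Among the S phase genes all 8 changes in C6SPGFP were positive, from 0.09 to 0.75 with a median of 0.21, and 6 of 8 were positive in C6, with a median of 0.18. Tyms carried the largest of these in either set. Its signals were 90.8 and 82.2 in C6 slow, 139 and 113 in C6 fast, 58.1 and 43.6 in C6SPGFP slow, and 87.0 and 94.2 in C6SPGFP fast. Fast arrays were above slow arrays in each set, and C6SPGFP arrays were below C6 arrays of the same speed. The change was 0.50 ± 0.21 in C6 and 0.75 ± 0.21 in C6SPGFP, neither of which passed alone, at adjusted p of 0.228 and 0.199. On the average of both sets Tyms rose by 0.63 ± 0.15, 1.54-fold with an adjusted p of 0.0488. That call sat at the threshold and was lost without each of the 8 arrays in turn. On dropping replicates 1 and 2 the adjusted p was 0.0817 and 0.109 for C6 slow, 0.117 and 0.066 for C6 fast, 0.0709 and 0.183 for C6SPGFP slow, and 0.123 and 0.168 for C6SPGFP fast. It was lost with a replicate block as well, at an adjusted p of 0.0538, and under scaling by the trimmed mean, at 0.0536. Adding 2 to the signal in place of 8, no minimum signal and no trend each lost the call too.

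Pcna, the sliding clamp of the DNA polymerases, had signals of 1733 and 1482 in C6 slow, 1593 and 1659 in C6 fast, 1991 and 1506 in C6SPGFP slow, and 2263 and 2383 in C6SPGFP fast. The C6SPGFP fast arrays were above all others. Between the sets in fast cells Pcna rose by 0.51 ± 0.14, 1.43-fold with an adjusted p of 0.0466, and another probe set gave 0.46 and an adjusted p of 0.0532. From slow to fast cells of C6SPGFP its change was 0.42 ± 0.14 with an adjusted p of 0.326, and in C6 it was 0.02 ± 0.14. The call between the sets was lost without C6 fast replicate 1 (adjusted p 0.173) or 2 (0.126) and without C6SPGFP fast replicate 1 (0.132) or 2 (0.202). Under scaling by the trimmed mean the change was 0.23 with an adjusted p of 0.372. The call was also lost under cyclic loess normalisation, without the minimum signal and without a trend.

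The other S phase genes passed in no comparison. Mcm6 lay at 1075 and 1117 in C6 slow, 1407 and 1142 in C6 fast, 1230 and 1221 in C6SPGFP slow, and 1407 and 1357 in C6SPGFP fast. Fen1, the nuclease that trims Okazaki fragments, lay at 395 and 342, then 428 and 534, then 435 and 381, then 470 and 519 in the same order. Both had every fast array above every slow array of the same set, with changes of 0.21 and 0.17 for Mcm6 and of 0.37 and 0.27 for Fen1 in C6 and C6SPGFP. Pola1, the catalytic subunit of polymerase alpha, changed by 0.39 and 0.16 at signals between 26.7 and 47.4. Its primase partner Prim1 changed by -0.10 and 0.09. Dut, which clears dUTP, changed by -0.15 in C6 and 0.25 in C6SPGFP, and Ung, which removes uracil from DNA, by 0.16 and 0.13.

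By the probe set of highest signal, all 6 genes of G2 and mitosis had positive changes on the average of both sets, from 0.18 to 0.48. Their median change was 0.27 in C6, with 5 of 6 positive, and 0.33 in C6SPGFP, with 6 of 6. None of them passed the test in any comparison by its probe set of highest signal. Cdc25b, the phosphatase that releases Cdk1 for entry into mitosis, had signals of 260 and 325 in C6 slow, 414 and 446 in C6 fast, 279 and 249 in C6SPGFP slow, and 388 and 323 in C6SPGFP fast. The fast arrays of Cdc25b lay above the slow arrays in each set. The change was 0.55 ± 0.17 in C6, 0.41 ± 0.17 in C6SPGFP and 0.48 ± 0.12 on their average, with adjusted p of 0.114, 0.495 and 0.0678.

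Top2a, the topoisomerase that untangles sister chromatids, gave 1095 and 1020 in C6 slow, 1240 and 1292 in C6 fast, 945 and 981 in C6SPGFP slow, and 1193 and 1339 in C6SPGFP fast. On this probe set, slow and fast arrays did not overlap in either set. Its change was 0.26 ± 0.11 in C6, 0.39 ± 0.11 in C6SPGFP and 0.32 ± 0.08 on average, the last with an adjusted p of 0.0621. Both other probe sets of Top2a gave larger changes in C6, 0.53 and 0.75. In C6SPGFP they gave smaller ones, 0.03 and 0.20, with overlapping arrays. The probe sets of Top2a also differed on the comparison of the changes between the sets, which was 0.13 for the brightest and -0.51 and -0.55 for the others, none of them called.

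Plk1 had signals of 549 and 627 in C6 slow, 702 and 776 in C6 fast, 481 and 458 in C6SPGFP slow, and 491 and 557 in C6SPGFP fast. Cdc20 followed the same order, at 555 and 650, 721 and 690, 420 and 443, and 501 and 549. In both genes every fast array was above every slow array of its set, and every C6SPGFP array was below every C6 array of its speed. The change from slow to fast was 0.33 and 0.15 for Plk1 and 0.23 and 0.28 for Cdc20 in C6 and C6SPGFP. Between the sets in fast cells Plk1 differed by -0.49 ± 0.14 with an adjusted p of 0.0507, and Cdc20 by -0.42 ± 0.14 with one of 0.0796.

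Cdk1, the mitotic kinase itself, changed by 0.29 ± 0.14 in C6, with fast arrays of 740 and 686 above slow arrays of 544 and 621, and by 0.10 ± 0.14 in C6SPGFP. Ccnb1, cyclin B1, was the exception in C6, at 499 and 549 in slow and 540 and 458 in fast cells. In C6SPGFP it lay at 338 and 346 in slow and 531 and 407 in fast cells, a change of 0.43 ± 0.17 with an adjusted p of 0.445. Between the sets in slow cells Ccnb1 differed by -0.60 ± 0.17 with an adjusted p of 0.08. Another probe set of Ccnb1, at 427 and 376 in C6 slow and 217 and 186 in C6SPGFP slow, fell by 0.97 ± 0.16 with an adjusted p of 0.0111. From slow to fast cells that probe set gave -0.32 in C6, with fast arrays of 333 and 307 below the slow ones. It gave 0.17 in C6SPGFP and -0.08 on the average of both sets, none of these called.

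**Figure D3:**
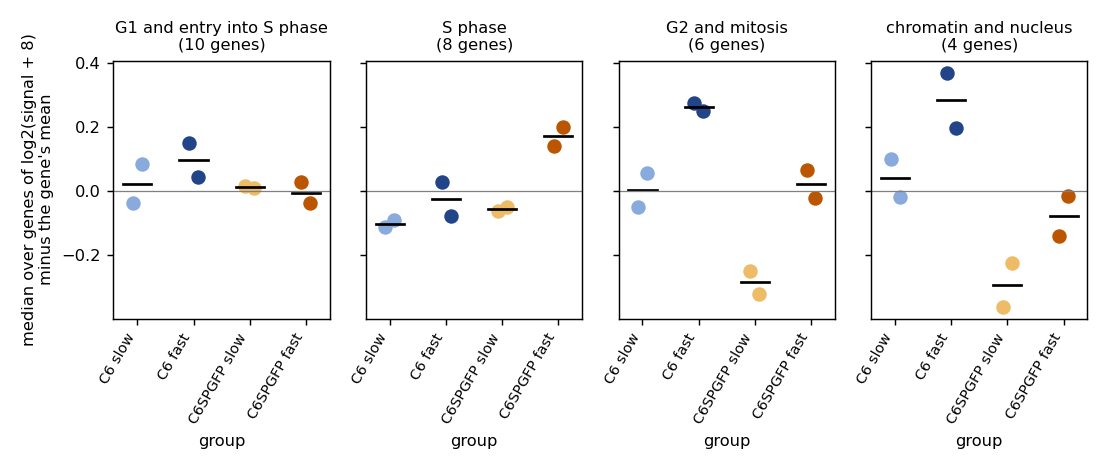
Median over the genes of a phase of log2 signal plus 8 minus each gene's mean, on each array (points), with the mean of the 2 arrays of a group as a bar. For G2 and mitosis the C6 fast arrays are at 0.28 and 0.25 and the C6SPGFP slow arrays at -0.25 and -0.32; for S phase the C6SPGFP fast arrays, at 0.14 and 0.20, are above the other 6.

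Genes of chromatin and the nuclear envelope were lower in C6SPGFP than in C6 for 4 of 4 in slow cells and 3 of 4 in fast cells, with medians of -0.39 in each. In slow cells 1 of 4 passed, Nap1l1, where 6.34% of all probe sets did, and in fast cells 2 of 4, Nap1l1 and Lmnb1, where 15.6% did. Nap1l1, a chaperone that deposits histones, had signals of 691 and 726 in C6 slow, 856 and 716 in C6 fast, 446 and 459 in C6SPGFP slow, and 514 and 508 in C6SPGFP fast. No C6SPGFP array reached a C6 array. It fell by 0.64 ± 0.14 in slow cells, 1.55-fold with an adjusted p of 0.0309, and by 0.61 ± 0.14 in fast cells, 1.52-fold with an adjusted p of 0.0188. The other Nap1l1 probe sets disagreed in sign, with -0.52 and -0.41 on 1 of them and 0.13 and 0.28 on the other, none of them called. Without a trend the Nap1l1 calls were lost in slow and in fast cells. With only the arrays compared, the call in slow cells was lost. In slow cells the Nap1l1 call was lost without C6 slow replicate 1 (adjusted p 0.0828) or 2 (0.0886), C6SPGFP slow replicate 1 (0.154) or 2 (0.153), or C6SPGFP fast replicate 1 (0.0602) or 2 (0.0603). In fast cells it was lost without C6 fast replicate 1 (0.0957) and C6SPGFP fast replicates 1 (0.0852) and 2 (0.0982).

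Lmnb1, lamin B1 of the nuclear lamina, had signals of 150 and 144 in C6 slow, 232 and 249 in C6 fast, 91.0 and 120 in C6SPGFP slow, and 143 and 128 in C6SPGFP fast. The C6 fast arrays were above all others and the C6SPGFP slow arrays below all others. Between the sets in fast cells it fell by 0.79 ± 0.19, 1.73-fold with an adjusted p of 0.0233, and another probe set gave -0.92 and an adjusted p of 0.0902. From slow to fast the change was 0.68 ± 0.19 in C6 with an adjusted p of 0.0742, and 0.35 ± 0.19 in C6SPGFP. The call between the sets was lost without C6 fast replicate 1 (adjusted p 0.0667) or 2 (0.0914) and without C6SPGFP fast replicate 1 (0.0786) or 2 (0.139). H2az1, a histone variant, changed by 0.02 in C6 and 0.17 in C6SPGFP, and Hmgb2, a DNA-bending protein, by -0.08 and 0.38, and neither passed in any comparison.

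Across the 28 genes, C6SPGFP cells differed from C6 cells in 2 calls in slow cells and 6 in fast cells, and in no direction shared by all phases. In slow cells 0 rose and 2 fell, Odc1 and Nap1l1, where 6.34% of all probe sets were called, 3.29% higher and 3.05% lower. In fast cells Ccnd2 and Pcna rose, and Odc1, Lmnb1, Cdk2 and Nap1l1 fell, 6 of 28 in all. That was a larger share than the 15.6% of all probe sets that were called, 8.29% higher and 7.3% lower. The difference of these shares was not tested. At an unadjusted p under 0.05, 10 of 28 (35.7%) were counted in slow cells and 11 (39.3%) in fast cells, against 21% and 28.9% of all probe sets. The median change was -0.11 in slow cells and -0.04 in fast cells, against 0.01 and -0.03 over all probe sets, and 17 of 28 were negative in each. By phase, G2 and mitosis genes were lower for 5 of 6 in slow cells and 6 of 6 in fast cells, with medians of -0.227 and -0.185. Among these, Top2a and Cdk1 differed in fast cells by only -0.002 and -0.003, with overlapping arrays. Both other Top2a probe sets gave -0.53 and -0.94 there, neither called. Of all probe sets, 50.7% were positive in slow cells and 46.9% in fast cells. S phase genes were higher for 6 of 8 in each, with medians of 0.098 and 0.085, and G1 genes lower for 6 of 10 in each. The comparisons of the sets use the same arrays as those of speed. In slow and in fast cells alike, 7 genes (25%) had every C6SPGFP array below every C6 array of the same speed, where 12.2% of all probe sets did: Cdk5, Odc1, Tyms, Plk1, Cdc20, Nap1l1 and Lmnb1. For Ccnd1, Ccnd2 and Ung (10.7%) every C6SPGFP array was above, where 12.5% of all probe sets had this. Under scaling by the trimmed mean Ccnd1 left this group (7.14%, against 16.3% of all probe sets). Some other Ccnd1 probe sets had overlapping arrays in fast cells. In slow cells the arrays overlapped on another probe set of Lmnb1 and on another of Nap1l1. Leaving out an array can only keep or raise the numbers of genes above and below. Without C6 fast replicate 2 the number below was 11 (39.3%), where 15.8% of all probe sets were below. Without C6 fast replicate 1 the number above was 5 (17.9%), where 15.1% of all probe sets were above.

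**Figure D4:**
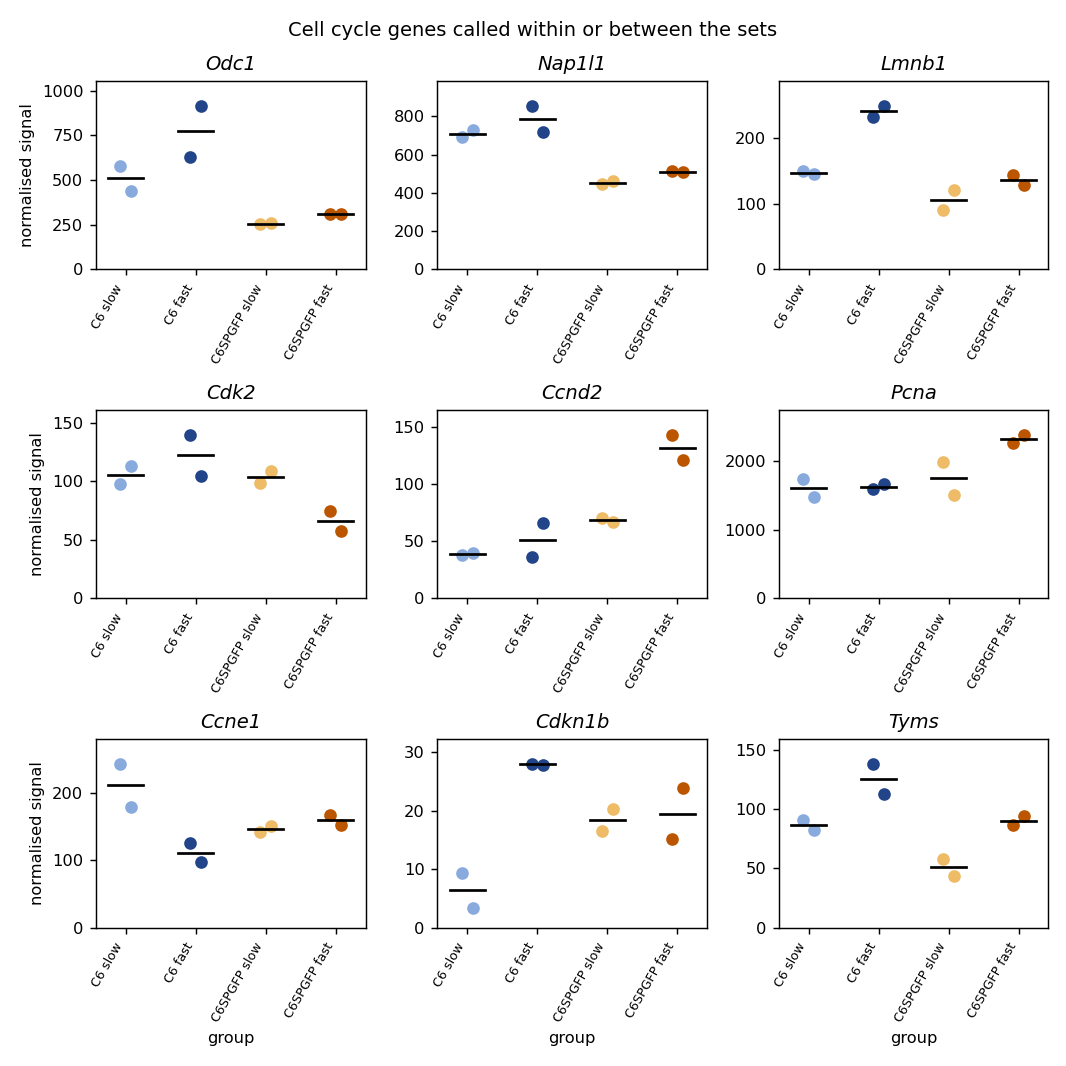
Normalised signal of the 9 genes called in at least 1 comparison, on each array (points) with group means (bars), each panel on its own axis from 0. Odc1 and Nap1l1 have all C6SPGFP arrays below all C6 arrays, and Ccne1 and Cdkn1b differ between slow and fast cells of C6.

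Whether the change from slow to fast differed between the sets was tested directly. With limma, 0 of 28 genes passed, where 3.82% of all probe sets did, 3 (10.7%, against 15.4% of all probe sets) had an unadjusted p under 0.05 (Ccne1, Cdk2 and Cdkn1b), and the lowest adjusted p was 0.135. The median difference over the genes was 0, with 14 of either sign. The 95% interval of a change lay within 2-fold in either direction for 24 of 28 genes in C6 and for 25 in C6SPGFP, and for the difference between the sets 22 were so bounded. Of the 15 genes with several tested probe sets, 12 had changes of a single sign in C6 and 10 in C6SPGFP.

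Other genes of the cell cycle, from a list of 163 of which 55 were tested, were called within C6 and between the sets and not within C6SPGFP. In C6, Max, the partner of Myc, rose by 1.94 and H2ax, a histone variant that marks DNA breaks, by 0.75, while Mdm2, which degrades p53, fell by 1.17 and Btg1, an antiproliferative gene, by 0.78 (4 of 55, 7.27%, with limma, against 6.66% of all probe sets). In C6SPGFP 0 of 55 passed with limma. The median change was 0.16 in C6 and 0.12 in C6SPGFP. Max lay at 8.69 and 8.68 in C6 slow, near the minimum signal, 36.9 and 83.6 in C6 fast, and 60.2 to 83.5 in the C6SPGFP arrays. On the average of both sets Max and H2ax rose by 1.04 and 0.52, and Btg1 fell by 0.53 (5.45%, against 5.03%). The difference between the sets called 0 of 55 with limma.

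Between the sets, 7 of these 55 passed in slow cells (12.7%, against 6.34% of all probe sets) and 10 in fast cells (18.2%, against 15.6%, with 9 lower and Mycn higher). Cdkn1a, the inhibitor p21, had signals of 522 and 319 in C6 slow, 385 and 378 in C6 fast, 165 and 165 in C6SPGFP slow, and 95.1 and 158 in C6SPGFP fast. It fell by 1.27 ± 0.28 in slow cells and by 1.57 ± 0.28 in fast cells, with adjusted p of 0.0339 and 0.00628. Gadd45a, a growth arrest gene induced by DNA damage, fell by 1.33 and 1.51. Ccng1, cyclin G1, was at 1549 and 1183 in C6 slow and 591 and 584 in C6SPGFP slow and fell by 1.19 ± 0.15, with an adjusted p of 0.00395. Mdm2 fell by 1.61 in slow cells, from 707 and 490 in C6 slow to 194 and 182 in C6SPGFP slow. For these 4 genes every C6SPGFP array was below every C6 array of the same speed, as for 12.2% of all probe sets. Mxd4, a Max-binding repressor, fell by 1.21 and 1.35 in slow and fast cells, and in fast cells Btg3 and Lbr fell by 1.14 and 1.13. In the other direction Max and Top2b rose by 2.20 and 0.96 in slow cells. The call of Mycn in fast cells, the only one upwards, is not read as a result: its signal was 5.09 or less on every C6 array, under the minimum of 8, and 10.1 to 20.7 on the C6SPGFP arrays, so it passed the minimum only through C6SPGFP.

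Leaving out single arrays ended some of these calls. Those of Cdkn1a, Gadd45a and Mxd4 in fast cells, of Ccng1 in slow cells and of Max in C6 held without each of the 8 arrays. Cdkn1a in slow cells was lost without C6 slow replicate 1 (adjusted p 0.148), C6 fast replicates 1 (0.0547) and 2 (0.0543), and C6SPGFP slow replicates 1 (0.145) and 2 (0.172). Gadd45a in slow cells was lost without C6 slow replicate 1 (0.0913) or C6SPGFP slow replicate 1 (0.113) or 2 (0.094), Mdm2 in slow cells without C6SPGFP slow replicate 2 (0.0583), and Mxd4 in slow cells without C6SPGFP slow replicate 1 (0.0758) or 2 (0.0661). In C6, dropping C6 slow replicate 1 ended the calls of H2ax (0.0702), Mdm2 (0.0991) and Btg1 (0.0922). Dropping C6 fast replicate 2 ended those of H2ax (0.0857) and Mdm2 (0.11), and dropping C6 fast replicate 1 that of Btg1 (0.0834). Max between the sets in slow cells was lost without C6SPGFP slow replicate 1 (0.0585), Lbr in fast cells without C6SPGFP fast replicate 1 (0.0548), and Btg3 without C6 fast replicate 1 (0.0995) or C6SPGFP fast replicate 1 (0.0972) or 2 (0.0736). Top2b was lost without each array in turn (0.0501 to 0.247). On the average of both sets Max was lost without each array but C6 fast replicate 1 (0.0617 to 0.157), H2ax without 5 arrays (0.0514 to 0.0837), which were C6 fast replicate 2 and the 4 of C6SPGFP, and Btg1 without 6 (0.0656 to 0.112), which were C6 slow replicate 1, C6 fast replicate 1 and the 4 of C6SPGFP.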

How the data were processed

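The authors deposited an intensity per probe set and array, on a linear scale and never below 0; which software computed it was not given in the sources used. From the values, each array was scaled alone. Of 8799 probe sets, 59 controls were left out. Signals were quantile normalised (limma 3.58.1, R 4.3.3), to a 2% trimmed mean of 150.9, and taken as log2(signal + 8). Probe sets whose normalised signal averaged 8 or more (6684) were fitted with 4 group means over 8 arrays (lmFit and eBayes with a trend), two-sided, with Benjamini-Hochberg adjustment over all of them at 5%. The fit had 4 residual and 4.49 prior degrees of freedom, and folds are of signal plus 8. The number of arrays, 2 a group, limits the precision. Group labels came from the sample titles. Symbols came from the platform's probe table, updated through Entrez identifiers. The members and gene lists were chosen with earlier results of these data known. Genes were named by rule: every member, by its probe set of highest signal; called genes of the wider list, at most 5 in each direction and comparison by size; and Vim, Gfap, S100b, Nes and Cnp for glial identity. The script was tested on simulated data, where the test recovered 46% of log2 changes of 1 and 90% of changes of 2, with 5 false calls. Smaller changes, such as those of most members, were not simulated. Alternatives tried were the scaling, pseudocounts of 2 and 32, no filter or a minimum of 50, no trend, only the arrays compared, the replicate number as a block, other probe set rules and leaving out each array. Deviations of same-numbered replicates correlated at 0.266 between slow and fast cells of C6 and at 0.104 between those of C6SPGFP. Across the sets the correlations ran from -0.127 to 0.0283. Whether the numbers pair the samples is not known, and the main fit took the arrays as unpaired.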

Additional observations from a re-analysis of the deposited data

How the results depend on the processing

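With the deposited scaling, which leaves C6SPGFP fast replicate 1 about 5-fold brighter, 0 members were called in any comparison; the probe sets called were 20 in C6, 15 in C6SPGFP, 12 on average, 24 for the difference, 2 between sets in slow cells and 182 in fast cells; the members' medians were 1.34 in C6SPGFP, 0.74 on average, 1.18 for the difference and 1.06 between sets in fast cells, where the medians of all probe sets were 1.04, 0.49, 1.08 and 1.11. Higher calls were then 100% in C6SPGFP (76.3% under quantile normalisation), 100% on average (47.9%), 95.8% for the difference (71%) and 94% between sets in fast cells (53.2%). Reversed there were Cdk2 (0.44), Lmnb1 (0.42), Nap1l1 (0.54), Btg3 (0.072) and Lbr (0.12) between sets in fast cells and Btg1 on average (0.009). Members called in C6 were 1 without a filter, with a minimum of 50 or without a trend, and 0 with only the arrays compared (230 probe sets). On average they were 0 under trimmed mean scaling, pseudocount 2, no filter, no trend and with a replicate block, and 2 with a minimum of 50. Between sets in slow cells they were 0 without a trend and with only the arrays compared (270 probe sets), and 4 over all their probe sets. Over the alternatives other than leaving out arrays, probe sets called ran from 20 to 460 in C6. They ran from 12 to 325 on average and from 2 to 450 between sets in slow cells. The share of all probe sets called under each filter, trend or pseudocount setting is not given here, so these member counts have no share beside them. Medians moved to 0.26 (C6) and -0.16 (sets, slow cells) over the mean of a gene's probe sets, 0.048 (difference) with cyclic loess, and -0.10 (sets, fast cells) under trimmed mean scaling. Leaving out 1 array gave members called of 0 to 1 in C6, 0 to 1 on average, 0 to 2 and 1 to 7 between sets in slow and fast cells, and probe sets called of 286 to 445, 21 to 107, 167 to 298, 122 to 273, 95 to 422 and 517 to 1125 in the 6 comparisons. Medians were then 0.17 to 0.25, 0.17 to 0.26, 0.17 to 0.21, -0.028 to 0.091, -0.13 to -0.011 and -0.061 to 0.01. Members separated by speed were then 15 to 18 in C6, 17 to 22 in C6SPGFP and 11 to 13 in both, and by set 3 to 5 above and 7 to 11 below. Leaving out an array can only keep or raise such counts. Of all probe sets, 7.96% to 9.31% then had fast above slow in both sets, against 5.61% with every array. Fast was then above slow for 24.3% to 38.6% of them in C6 and for 20.9% to 35.5% in C6SPGFP. By set, 14.8% to 16.2% of them were then above and 14.6% to 17.3% below. Separation by set above was 2 (7.14%) under trimmed mean scaling, against 16.3% of all probe sets. Whether the replicate numbers pair the arrays is not known: correlations of deviations ran from -0.127 to 0.266. With a replicate block, members called were 2, 0, 0, 0, 2 and 6, and probe sets 424, 87, 306, 235, 392 and 989. Of 550 alternative values of the 31 gene calls, 381 stayed called in the same direction, 163 were no longer called and 6 reversed; the cause was not tested. Signals of a few units, such as Cdkn1b in C6 slow, are not shown to be above background.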
